A study of Mus musculus with 4 samples.

Results

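The CC chemokine ligands described here were Ccl2, Ccl3, Ccl4, Ccl6, Ccl7, Ccl8, Ccl9, Ccl12, Ccl22 and Ccl24, 10 of the 16739 genes with a value in the deposited tables, and they were taken by name from a list. They were measured by bulk RNA-seq in 4 libraries of CD45+CD11b+F4/80+ tumor-associated macrophages (TAMs) sorted from B16-F10 melanomas, a mouse melanoma cell line grown under the abdominal skin of C57BL/6 mice. Mice were 6 to 8 weeks old at injection, and TAMs were sorted 16 days later. In 2 libraries the mice were labelled wild type (WT), and in the other 2 they were labelled Trim24-/-, which the methods describe as Trim24 flox/flox mice carrying LysM-Cre, so that deletion of Trim24, an E3 ligase and chromatin reader, is driven in myeloid cells and not in the macrophages of tumors alone. Mice of both groups carried the same tumor and no further treatment. The labels number the samples without saying whether a library came from 1 mouse or from pooled mice, so p-values measure only the spread between these samples.

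CC chemokines are small secreted proteins that draw leukocytes along a gradient through G protein-coupled receptors, and their name comes from a pair of adjacent cysteines. Ccl2, Ccl7 and Ccl12 act on Ccr2 and call monocytes out of the blood, Ccl3, Ccl6 and Ccl9 act on Ccr1, and Ccl4 is a close relative of Ccl3 that draws T cells and macrophages. Mouse Ccl8 signals through Ccr8, Ccl22 draws regulatory and type 2 helper T cells through Ccr4, and Ccl24 is an eotaxin that acts on Ccr3. Tumor macrophages are a well-known source of several of these ligands.

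The shared feature of the family is shown first, because it marks these genes as members of the CC class, and it is given for 9 of the 10. Each line gives 30 bases of coding sequence, 5′ to 3′, from the reference annotation of GRCm38, with the codons of the paired cysteines in capitals.
Ccl2 (chr11:82036494-82036523, plus strand): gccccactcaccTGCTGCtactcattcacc
Ccl7 (chr11:82046526-82046555, plus strand): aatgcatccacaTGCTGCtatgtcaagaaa
Ccl12 (chr11:82102622-82102651, plus strand): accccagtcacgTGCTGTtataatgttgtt
Ccl8 (chr11:82116044-82116073, plus strand): gctccagtcaccTGCTGCtttcatgtacta
Ccl6 (chr11:83589374-83589403, minus strand): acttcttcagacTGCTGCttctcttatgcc
Ccl9 (chr11:83575914-83575943, minus strand): gactcttcagatTGCTGCctgtcctataac
Ccl4 (chr11:83663470-83663499, plus strand): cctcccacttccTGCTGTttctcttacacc
Ccl22 (chr8:94746922-94746951, plus strand): gaagacagtatcTGCTGCcaggactacatc
Ccl24 (chr5:135572653-135572682, minus strand): atcccctcatctTGCTGCacgtcctttatt
The pair was written with 2 TGC codons in 7 of the 9 genes shown and as TGC followed by TGT in Ccl4 and Ccl12. Ccl24 held 2 pairs, and the last pair with at least 2 further cysteines after it is shown. Coding sequences shared 38.3% to 66.7% of aligned positions over the 45 pairs of members, with gaps counted as mismatches. The closest were Ccl3 and Ccl4, at 66.7%, Ccl6 and Ccl9, at 64.6%, and Ccl8 and Ccl12, at 64.4%.

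Of the members, 8 lay in 2 clusters on chromosome 11 of GRCm38. Ccl2, Ccl7, Ccl12 and Ccl8, the monocyte chemoattractant genes, lay in that order within chr11:82035571-82116799, and Ccl9, Ccl6, Ccl3 and Ccl4, the macrophage inflammatory protein genes, lay within chr11:83572919-83664683, 1456.1 kb further on. Ccl22 lay at chr8:94745590-94751699 and Ccl24 at chr5:135569937-135573049. Ccl6 and Ccl9 had 4 exons and the other 8 had 3. No exon of another gene overlapped an exon of a member, although the spans of Ccl2 and Ccl6 lie opposite Gm17268 and E230016K23Rik and whether counting used strand is not stated.

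The libraries held 4476122 to 5172407 expected counts, and values of a group are given in the order replicate 1, replicate 2. Trim24 transcript did not separate the groups: levels were 5.82 and 2.12 CPM (counts scaled to library size by TMM) for WT, against 3.43 and 0.411 CPM for those labelled Trim24-/-, a log2 fold change of -1.06 ± 0.82 (SE, n = 2 each; adjusted p = 0.635, edgeR's quasi-likelihood test). The latter are therefore called the libraries labelled KO. Xist was at 10.9 and 6.51 CPM in WT libraries against 437 and 256 CPM in those labelled KO, and the Y-linked Ddx3y at 73.6 and 102 CPM against 0.426 and 0.411 CPM, so sex-linked transcripts parted the libraries exactly as the label did. The methods describe the mice as matched for sex, which this split goes against, and every difference below cannot be told apart from a difference of sex. Of 11302 genes tested over all libraries, 42 passed a fold change above 1.5 and an adjusted p below 0.05, or 0.372%, and 33 of them, or 0.292%, were higher in the libraries labelled KO. The summed CPM of 10 macrophage markers was 22841 and 22532 in WT and 22016 and 27362 in the libraries labelled KO, and all 10 were detected. Of these markers 5 were higher in both libraries labelled KO than in both WT libraries and none was lower in both, and none passed the test.

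Levels between genes were compared in FPKM, which corrects for length. Ccl7, Ccl2, Ccl8 and Ccl12 were among the most abundant transcripts of WT TAMs, at means of 1730, 1682, 1433 and 1306 FPKM, and the FPKM ranges of neighbours in this order overlapped. Ccl7 ranked between 20 and 28 among all genes in the 4 libraries. Ccl6 followed in WT TAMs at 594 FPKM, apart from Ccl12 above and from Ccl4 below. Ccl4 and Ccl9 came next at 326 and 249 FPKM with overlapping ranges, and Ccl3 was at 130 FPKM. Ccl24 and Ccl22 were far below these, at 2.70 and 2.06 FPKM.

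Ccl6 stood nearer the top in the libraries labelled KO. It had a mean of 1537 FPKM there and its range overlapped those of Ccl2, at 1603 FPKM, and Ccl12, at 1447 FPKM, whereas in WT TAMs it lay below both. Ccl6 ranked 94 and 156 among all genes by FPKM in WT libraries, and 48 and 37 in those labelled KO. Ccl7 and Ccl8 led at 2304 and 2190 FPKM with overlapping ranges, Ccl8 now apart from Ccl2, and Ccl4, Ccl9 and Ccl3 followed at 500, 348 and 184 FPKM, each apart from the next.

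All 10 members had a log2 fold change above 0 for the libraries labelled KO over WT, with a median of 0.70 against -0.0059 over all genes tested, but none passed the test. Of the 10, 7 had an unadjusted p under 0.05, all higher, where 6.58% of all genes tested had one in that direction, and in 8 of 10 both libraries labelled KO lay above both WT libraries, as in 21.5% of all genes tested. DESeq2 called 1 member, Ccl6, and limma on log2 FPKM called 0. The 10 genes share libraries and are not independent. They were also chosen with earlier results of these data known, so these counts describe the list and are not a test of it. In bulk RNA, fewer cells of a type and less RNA per cell cannot be told apart.

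**Figure D1:**
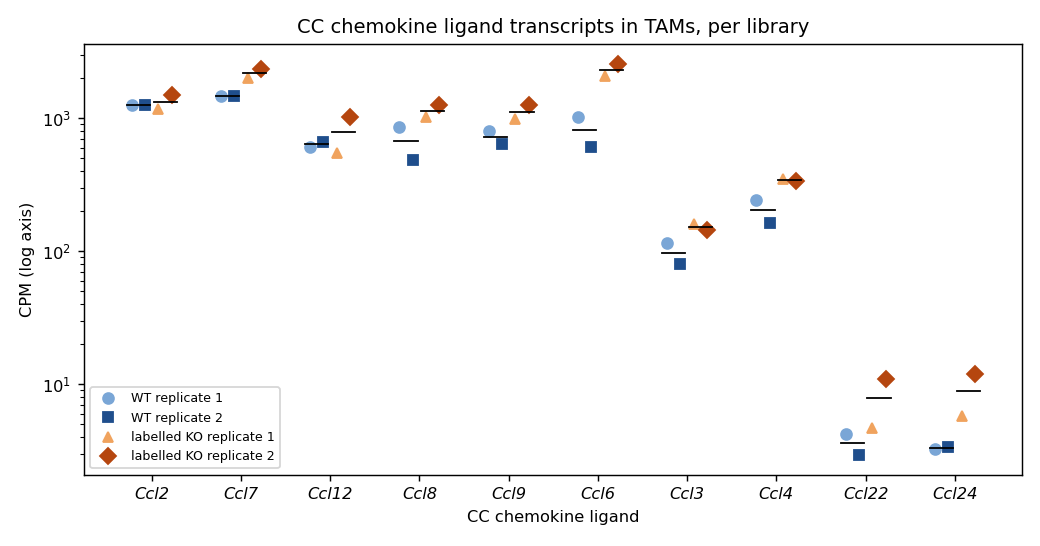
Level of each ligand in each of the 4 libraries, in CPM on a log axis, with each point 1 library and the bar the mean of its group. Both libraries labelled KO lie above both WT libraries for 8 of the 10 ligands, all but Ccl2 and Ccl12, and Ccl6 shows the widest gap between groups among the 8 ligands above 50 CPM.

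**Figure D2:**
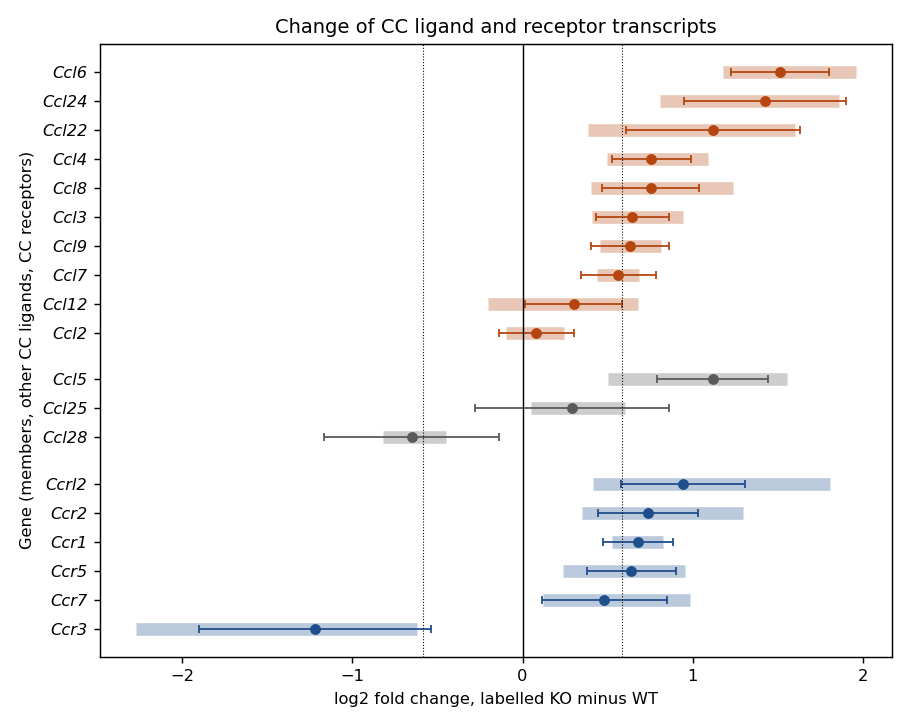
Log2 fold change of each of the 10 ligands, and of 3 other CC ligands and 6 receptors that were tested, libraries labelled KO over WT. Thin bars give the standard error, and thick pale bars the range when each of the 4 libraries was left out in turn. Dotted lines mark a fold of 1.5 either way. The points of all 10 members are above 0, but the Ccl2 and Ccl12 ranges cross 0. Ccl2 falls below 0 with library totals alone or with FPKM. Among the other genes, Ccl28 at -0.65 and Ccr3 at -1.22 lie below 0.

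None of the 4 monocyte chemoattractant genes of the first cluster passed the test, with log2 fold changes from 0.08 to 0.75. Ccl2, the main ligand of Ccr2, was at 1259 and 1260 CPM in WT libraries, against 1177 and 1486 CPM in the libraries labelled KO. The libraries overlapped, and the log2 fold change of 0.08 ± 0.22 (SE, n = 2 each; adjusted p = 0.915, edgeR's quasi-likelihood test) turned to -0.07 with library totals alone and to -0.08 with FPKM, settings that put the median of all genes at -0.15 and -0.13. Ccl12, a Ccr2 ligand of the mouse, was at 609 and 662 CPM in WT, against 550 and 1015 CPM in the libraries labelled KO. It overlapped too, at 0.30 ± 0.29 (adjusted p = 0.715, edgeR's quasi-likelihood test), and without KO replicate 2 it was at -0.21.

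Ccl7, which also acts on Ccr2, was at 1471 and 1476 CPM in WT libraries and at 1991 and 2361 CPM in those labelled KO, without overlap. Its log2 fold change was 0.56 ± 0.22 (SE, n = 2 each; adjusted p = 0.349, edgeR's quasi-likelihood test). Ccl8, a Ccr8 agonist in the mouse, was at 860 and 488 CPM in WT, against 1024 and 1248 CPM in the libraries labelled KO. WT replicate 1 stood closer to KO replicate 1 than to the other WT library, and the log2 fold change was 0.75 ± 0.29 (adjusted p = 0.332, edgeR's quasi-likelihood test). It was 0.40 without WT replicate 2 and 1.24 without WT replicate 1.

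In the second cluster, Ccl6, a Ccr1 ligand of macrophages, had the largest fold change of the members. It was at 1024 and 603 CPM in WT libraries, against 2068 and 2573 CPM in the libraries labelled KO, so each library labelled KO lay above both WT libraries. The means were 813 ± 298 and 2320 ± 357 CPM (SD, n = 2 each), a 2.85-fold difference and a log2 fold change of 1.51 ± 0.29. The adjusted p was 0.0759 with edgeR's quasi-likelihood test, 1.16e-05 with DESeq2 and 0.207 with limma on log2(FPKM + 0.1). The last 2 were the lowest and highest of the alternatives that kept all libraries and used no replicate block. Without WT replicate 2, the lower of the WT libraries, its log2 fold change was 1.18. Without WT replicate 1, KO replicate 1 or KO replicate 2 it was 1.96, 1.67 and 1.35. Leaving a library out takes the spread of its group from the other group, so only fold changes are given here.

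Ccl9, the paralog next to Ccl6, was at 800 and 641 CPM in WT libraries and at 987 and 1245 CPM in those labelled KO, a log2 fold change of 0.63 ± 0.23 (SE, n = 2 each; adjusted p = 0.313, edgeR's quasi-likelihood test). Its groups did not overlap but were closer than those of Ccl6. Ccl9 was also the only member with expected counts that were not whole, which RSEM gives where reads are divided among genes.

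Ccl3 and Ccl4, inflammatory chemokines of activated macrophages, lay higher in the libraries labelled KO without overlap. Ccl3 was at 114 and 80.0 CPM in WT, against 160 and 144 CPM in the libraries labelled KO, with a log2 fold change of 0.64 ± 0.22 (SE, n = 2 each; adjusted p = 0.267, edgeR's quasi-likelihood test). Ccl4 was at 243 and 163 CPM in WT, against 349 and 338 CPM in the libraries labelled KO, with 0.76 ± 0.23 (adjusted p = 0.224, edgeR's quasi-likelihood test). No alternative that kept all libraries and used no replicate block called either gene. Without KO replicate 2 the log2 fold changes were 0.72 for Ccl3 and 0.78 for Ccl4. Without WT replicate 2 they were 0.41 for Ccl3 and 0.50 for Ccl4, both under a fold of 1.5.

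Ccl22 and Ccl24, which lie outside the clusters, were low. Ccl22 had 21 and 14 expected counts in WT libraries and 22 and 53 in those labelled KO, so the log2 fold change of 1.12 ± 0.51 (SE, n = 2 each; adjusted p = 0.418, edgeR's quasi-likelihood test) rested largely on KO replicate 2, without which it was 0.39. Ccl24 had 16 and 16 counts in WT and 27 and 58 in the libraries labelled KO, at 1.42 ± 0.47 (adjusted p = 0.267, edgeR's quasi-likelihood test), and it too rested largely on KO replicate 2, without which it was 0.81. Without KO replicate 1 the log2 fold change of Ccl24 was 1.86. Such counts carry counting error of their own, and 3 counts correspond to 0.606 to 0.639 CPM.

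For each of the 8 members without overlap, an exact two-sided permutation test over the 4 libraries gave p = 0.333, the smallest that 2 against 2 allows. For Ccl2 and Ccl12 the same exact test gave p = 1.

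Summed over the 10 members, the ligands took 0.657% and 0.577% of the counts of WT libraries and 0.794% and 0.982% of those labelled KO. The sum was 5884 ± 714 CPM in WT and 9374 ± 1496 CPM in the libraries labelled KO (SD, n = 2 each). Within the summed FPKM of the family, the share of Ccl6 was 9.31% and 6.46% in WT and 15.39% and 15.02% in the libraries labelled KO, whereas that of Ccl2 was 20.8% and 24.5% against 15.9% and 15.8%. Ccl9 held 3.24% to 3.46% in all 4 libraries. These shares sum to the whole, so a higher share of 1 ligand lowers the rest.

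**Figure D3:**
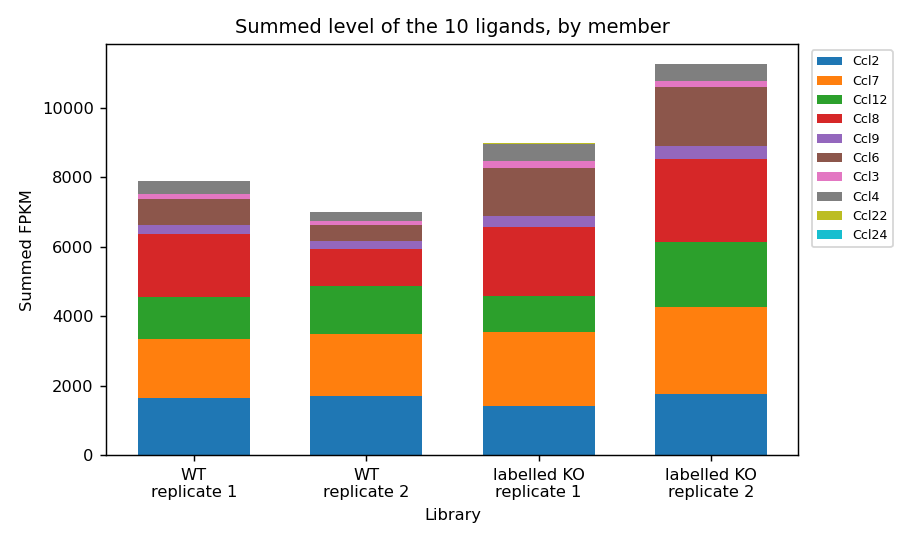
Summed FPKM of the 10 ligands in each of the 4 libraries, stacked by ligand. Of the summed FPKM, Ccl6 takes 15.39% and 15.02% in the libraries labelled KO against 9.31% and 6.46% in WT. Ccl2 takes 15.9% and 15.8% in the libraries labelled KO against 20.8% and 24.5% in WT.

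Neighbouring genes were also compared within each library, where the scaling of libraries cancels, and these pairs were chosen after their values were seen. The count of Ccl7 over that of Ccl2 was 1.17 and 1.17 in WT libraries and 1.69 and 1.59 in those labelled KO. Ccl6 over Ccl9 was 1.28 and 0.940 in WT and 2.10 and 2.07 in the libraries labelled KO. In both pairs each library labelled KO exceeded each WT library, and no test was run on these ratios. Ccl4 over Ccl3 was 2.13 and 2.04 in WT and 2.19 and 2.34 in the libraries labelled KO, also without overlap but over a narrower range, and Ccl8 over Ccl12 overlapped, at 1.41 and 0.737 in WT against 1.86 and 1.23.

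**Figure D4:**
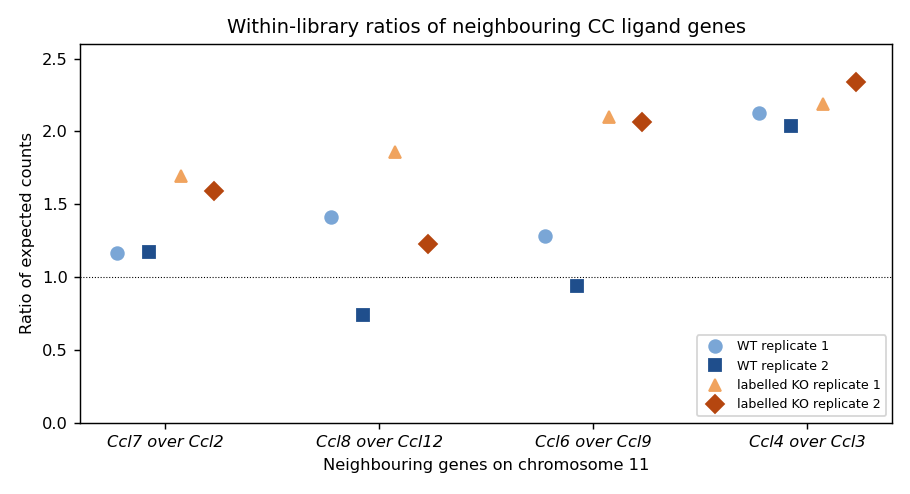
Ratio of the expected counts of 2 neighbouring ligand genes within each library, on a linear axis, with each point 1 library. Ccl7 over Ccl2 and Ccl6 over Ccl9 are higher in both libraries labelled KO than in both WT libraries, as is Ccl4 over Ccl3 within its narrower range of 2.04 to 2.34, and Ccl8 over Ccl12 overlaps.

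The patterns of the members over the 4 libraries were alike to different degrees. Pearson's r of log2 CPM, over 4 libraries that share their scaling, had a median of 0.81 over the 45 pairs of members and ranged from 0.12 for Ccl2 and Ccl3 to 0.995 for Ccl3 and Ccl4. Ccl2 and Ccl12 were at 0.99, Ccl6 and Ccl9 at 0.98. Against the tested receptors, r ranged from -0.85 for Ccl3 and Ccr3 to 0.99 for Ccl7 and Ccr1. Ccl24 and Ccr1 were at 0.97, and Ccl2 and Ccr2 at 0.17. Each r was taken over both groups together, so it also holds the difference between groups, which was not removed.

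Since Ccl6 and Ccl9 lie side by side with a like pattern but unlike size, their promoters are shown, each 250 bases before to 50 bases after the start site, from RefSeq on GRCm38.p6. Capitals mark 3 runs of at least 10 bases that both promoters share in order, which were looked for after the values were seen.
Ccl6 (chr11:83593038-83593337, minus strand): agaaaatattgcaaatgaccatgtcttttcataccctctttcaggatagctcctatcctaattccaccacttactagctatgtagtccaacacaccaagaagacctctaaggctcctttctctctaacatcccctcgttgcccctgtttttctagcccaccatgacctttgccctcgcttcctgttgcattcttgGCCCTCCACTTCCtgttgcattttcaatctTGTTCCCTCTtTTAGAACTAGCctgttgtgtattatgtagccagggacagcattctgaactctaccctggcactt
Ccl9 (chr11:83578587-83578886, minus strand): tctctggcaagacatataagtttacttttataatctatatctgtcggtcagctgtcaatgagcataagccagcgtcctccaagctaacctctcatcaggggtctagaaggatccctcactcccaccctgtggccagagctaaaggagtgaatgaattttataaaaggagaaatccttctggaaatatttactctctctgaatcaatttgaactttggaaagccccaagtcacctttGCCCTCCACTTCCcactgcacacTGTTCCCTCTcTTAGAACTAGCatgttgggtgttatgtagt
The best local alignment of both spanned 74 columns at 79.7% identity, with a longest run of 13 bases, from -59 to 15 relative to the start site in Ccl6 and from -18 to 49 in Ccl9. Promoters of 6 of the 10 members were searched, Ccl3, Ccl6, Ccl8, Ccl9, Ccl12 and Ccl22, and those of Ccl2, Ccl4, Ccl7 and Ccl24 were not analysed here. On both strands, TATAAA matched in Ccl8, Ccl9 and Ccl12, as in 13.6% of 32851 promoters. The AP-1 letters TGANTCA and the NF-kappaB motif matched in Ccl9, as in 7.81% and 8.46% of promoters, and TTCNNNNGAA and TTCNNNGAA, the STAT spacings, matched in none of the 6, against 6.95% and 8.30%.

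Of 13 other CC ligands listed, 8 had a value and 3 could be tested, of which none passed the test and 1, Ccl5, had an unadjusted p under 0.05. Ccl5, a Ccr1 ligand made by T cells and macrophages, was at 19.99 and 18.8 CPM in WT, against 56.9 and 27.3 CPM in the libraries labelled KO (log2 fold change 1.12 ± 0.32, SE, n = 2 each; adjusted p = 0.217, edgeR's quasi-likelihood test). Ccl28, an epithelial ligand, was at 4.2 and 3.34 CPM against 2.13 and 2.70 CPM. Ccl17, which shares Ccr4 with Ccl22, had 0, 1, 1 and 6 counts in the libraries in the order WT 1, WT 2, KO 1 and KO 2 and was not tested.

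Of 14 receptors listed, 13 had a value and 6 were tested, 5 with a log2 fold change above 0, of which none passed the test and 4 had an unadjusted p under 0.05. Ccr1, the receptor of Ccl3, Ccl6 and Ccl9, was at 214 and 233 CPM in WT, against 320 and 394 CPM in the libraries labelled KO (0.68 ± 0.20, SE, n = 2 each; adjusted p = 0.222, edgeR's quasi-likelihood test). Ccr2, the receptor of Ccl2, Ccl7 and Ccl12, was at 170 and 332 CPM against 429 and 408 CPM. Ccr3, the receptor of Ccl24, was at 2.42 and 3.96 CPM in WT, against 0.639 and 2.05 CPM in the libraries labelled KO, and Ccr4 and Ccr8, the receptors of Ccl22 and Ccl8, were below the filter.

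Markers of other myeloid cells, which the gate could hold, were higher along with the ligands in summed level. The monocyte list summed to 568 and 719 CPM in WT and 1697 and 1122 CPM in the libraries labelled KO, and 4 of 6 markers lay higher without overlap. The neutrophil list summed to 194 and 230 CPM against 311 and 482 CPM, and 5 of its 6 tested markers were higher without overlap. Of all genes tested, 21.5% were higher without overlap. Mmp8 parted narrowly, at 16.04 CPM in WT replicate 2 against 16.19 CPM in KO replicate 1, and Cxcr2 had a log2 fold change of -0.30. Of the 11 neutrophil markers, Ly6g, Retnlg, Camp, Ngp and Ltf were too low to be tested. The eosinophil list summed to 14.8 and 14.2 CPM against 29.9 and 17.6 CPM, with Prg2 and Ear1 at 0 in all libraries. Only 2 of its 6 markers were tested, and just 1 of them was higher without overlap. Their part in the ligands' differences was not tested.

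Lymphocyte markers did not part the groups. The T and NK cell list summed to 240 and 128 CPM in WT and 508 and 136 CPM in the libraries labelled KO, and none of its 10 tested markers was higher in both. The dendritic cell list summed to 57.5 and 51.8 CPM against 84.6 and 48.4 CPM, the B cell list to 55.3 and 46.3 CPM against 55.4 and 51.6 CPM, and the melanoma list to 783 and 740 CPM against 585 and 789 CPM. Of 6 melanoma markers, 3 (Mlana, Tyrp1 and Dct) were lower without overlap in the libraries labelled KO and none was higher. Of 7 tested dendritic cell markers, 2 were lower without overlap and 1 was higher. Among all 11302 genes tested, 2602 were lower without overlap. The fibroblast and endothelium list was at 18.6 and 11.9 CPM against 39.4 and 25.7 CPM. Only 1 of its 5 markers, Pecam1, was tested, and the others stayed at or below 2.92 CPM in every library. The mast cell and basophil list reached at most 2.13 CPM, with Mcpt4 and Mcpt8 at 0. Their part was not tested either.

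**Figure D5:**
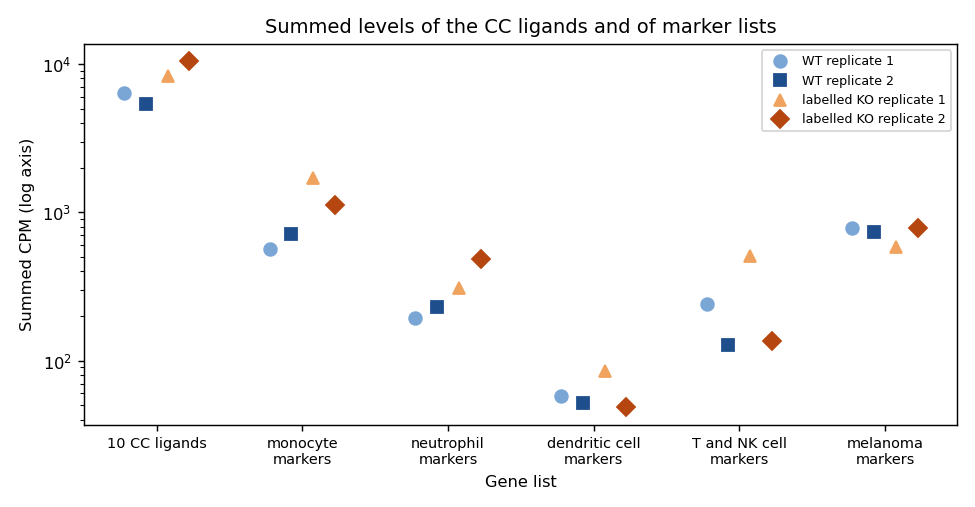
Summed CPM of the 10 ligands and of the monocyte, neutrophil, dendritic cell, T and NK cell and melanoma marker lists in each of the 4 libraries. The axis is a log axis and each point is 1 library. The ligand sum and the monocyte and neutrophil lists are higher in both libraries labelled KO than in both WT libraries. The dendritic cell and melanoma sums overlap, although 3 of 6 melanoma markers taken singly were lower in both libraries labelled KO. The T and NK cell list is high in KO replicate 1 alone.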

How the data were processed

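RNA-seq libraries of sorted TAMs were compared between 2 WT samples and 2 samples labelled KO, grouped by genotype label. Reads were aligned by the authors with Bowtie (reference GRCm38/mm10), and RSEM gave the expected count per gene that they deposited, 77.11% of values being whole. Versions are not given in the sources used here. The authors also deposited FPKM values, scaled to gene length and library total, used here to compare genes, and a transcript length, not tested here.

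Expected counts were rounded and tested with edgeR 4.0.16 in R 4.3.3 (filterByExpr, TMM, glmQLFit, glmQLFTest, no block), with Benjamini-Hochberg adjustment over 11302 genes, and calls needed an adjusted p below 0.05 with a fold change beyond 1.5. Standard errors were derived from the test, as the size of the log2 fold change divided by the square root of edgeR's F statistic. DESeq2 1.42.0, limma 3.58.1 on log2(FPKM + 1) and log2(FPKM + 0.1) for genes at 1 FPKM or more in at least 2 libraries, other scalings, other filters and leaving out each library were alternatives. On simulated counts with 200 genes changed 4-fold, 88% were called, 92 of 92 above 30 CPM and 84 of 108 below, a split chosen after the overall share was seen. The simulated spread followed the trend over level and not each gene's own spread. Smaller changes, such as those of the members, were not simulated. Totals of 4476122 to 5172407 counts make 3 counts 0.606 to 0.639 CPM, for counting error only.

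All 10 members were named with every library's value. Members and lists (other ligands, receptors, markers of macrophages, monocytes, neutrophils, eosinophils, dendritic cells, T and NK cells, B cells, mast cells and basophils, melanoma, fibroblasts and endothelium) were chosen with earlier results of these data known. Coding sequence and positions came from GENCODE on GRCm38, promoters from RefSeq on GRCm38.p6. Peritoneal macrophages were not analysed here, and single values of a receptor and a marker and the coding stretch of Ccl3 are not reported here.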

Additional observations from a re-analysis of the deposited data

How the results depend on the processing

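Without a low-count filter 62 genes were called, with at least 10 counts in every library 35, with robust dispersion 51, and with library totals alone or upper-quartile scaling 30 each. DESeq2 called 156, limma with a pseudocount of 1 called 23 (14 higher) and with 0.1 called 20 (11 higher), against 42 (33 higher), and leaving out 1 library gave 25 (WT replicate 2), 66 (WT replicate 1), 405 (KO replicate 1) and 652 (KO replicate 2). Of the members, 1 was called by DESeq2 and 1 without the filter (Ccl6 in both), and leaving out 1 library gave 0 to 3: Ccl6 without WT replicate 1, Ccl6 and Ccl24 without KO replicate 1, Ccl3, Ccl4 and Ccl6 without KO replicate 2, and none without WT replicate 2. Where a group kept 1 library, that library was assumed to vary like the other group. Ccl2 turned to -0.070 with library totals alone and to -0.077 with FPKM at either pseudocount, and leaving out 1 library gave -0.10 to 0.24 for Ccl2 and -0.21 to 0.68 for Ccl12. Of 130 member values under alternatives, 112 kept direction and side of the threshold, 13 newly passed it and 5 turned direction, and the members' median stayed between 0.49 and 1.02. The cause of these shifts was not tested.

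With a replicate block, 634 genes (425 higher) and 5 members (Ccl3, Ccl4, Ccl6, Ccl8 and Ccl9) were called. The labels do not say that numbers pair samples, and deviations of same-numbered samples correlated at 0.16. The block left 1 residual degree of freedom and an infinite prior, so its p-values do not measure a single gene's spread. Ccl22 and Ccl24 lay below the 30 CPM under which the simulated test missed some 4-fold changes, and label and sex cannot be told apart.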
